A study of Homo sapiens with 24 samples.

Results

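The 48 genes described here encode kinases, kinesins, kinetochore proteins and other proteins that carry a cell through mitosis. They were chosen by name from the 60675 genes in the count tables, and every one of them was found by its Ensembl identifier and passed the filter on low counts in each comparison. Cells enter mitosis when cyclin-dependent kinase 1, bound to an A or B type cyclin, is activated by the CDC25 phosphatases, and Polo-like and Aurora kinases then act on centrosomes, chromosomes and the spindle. Kinesin motors and microtubule-binding proteins build the spindle, kinetochores join each chromosome to it, the anaphase-promoting complex releases the sister chromatids, and a contractile ring divides the cell. Transcripts of most of these genes are known to be made mainly in late S phase and G2. They are made through promoter elements bound by the NF-Y, B-MYB-MuvB and FOXM1 factors. Their summed level in a culture can therefore depend in part on the share of cells in those phases, which the count tables do not give. In bulk RNA, fewer cells in G2 and mitosis and less RNA per such cell cannot be told apart.

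RNA was sequenced from ACHN, a human renal cancer line, and HK-2, a line of human kidney proximal tubular epithelium, in 4 groups of 3 replicates each, 24 libraries in all. The 4 groups of each line carried a control hairpin (shNC), a hairpin against the histone demethylase KDM5C (shKDM5C), a hairpin against the transcription factor YY1 (shYY1), or both (labelled Dsh, the double knockdown). All were stable cells selected with puromycin after lentiviral infection and grown in the same medium, and the double-knockdown cells were made from YY1-depleted cells infected with a GFP-marked KDM5C hairpin and also selected for green fluorescence. The comparison asks how the mitotic genes stood when each factor was depleted alone and when both were, in a tumor line and a nontumoral line. Each line is 1 genetic background, and the hairpin used for RNA-seq is not named in the sources used here. A GFP-marked control hairpin plasmid is listed among the reagents. No source says that shNC cells received it or another second, GFP-marked vector. No source says that replicates were separate infections, so p-values measure the spread between these libraries only.

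KDM5C was at 69.0 to 69.9 CPM (read counts scaled to a common library size, with edgeR's TMM factors within a line) in ACHN shNC, 41.1 to 43.5 in shKDM5C and 39.7 to 40.7 in double-knockdown libraries, and YY1 at 132.9 to 140.7 in shNC, 71.9 to 78.5 in shYY1 and 89.7 to 103.1 in double-knockdown libraries. YY1 thus remained higher in the ACHN double knockdown than in shYY1 (log2 difference 0.35, adjusted p = 5.36e-05, edgeR). In HK-2, YY1 was at 203.1 to 215.7 CPM in shNC, 62.2 to 68.8 in shYY1 and 73.2 to 76.1 in double-knockdown libraries. KDM5C was at 191.3 to 197.0 CPM in HK-2 shNC and 65.9 to 72.4 in double-knockdown libraries. In HK-2 shKDM5C replicates 1, 2 and 3 it was at 37.4, 68.5 and 67.5 CPM, and replicate 1 is the library set apart below. KDM5C was higher in shYY1 than in shNC in both lines. It was at 87.6 to 92.0 CPM in ACHN shYY1 (log2 difference 0.34, adjusted p = 1.14e-08, edgeR). In HK-2 shYY1 it was at 233.2 to 260.6 CPM (0.35, adjusted p = 1.54e-05, edgeR). The part of this rise in the results was not tested. The libraries held 15926561 to 24272298 counts, and the 48 genes had between 96 and 31985 counts each in a library. Kidney epithelial markers were partly present: 5 or 6 of 8 reached a mean of 1 CPM in each group, with PAX8, KRT8 and KRT18 high and the proximal tubule receptors LRP2 and CUBN at 1.15 CPM or less in every library. The 8 kidney markers summed to 2196 to 2233 CPM in ACHN shNC, 2492 to 2568 in shKDM5C, 2604 to 2689 in shYY1 and 1511 to 1670 in the double knockdown, and in HK-2 to 2724 to 2830, 2339 to 2840, 1833 to 1950 and 1323 to 1448. The 5 immune markers summed to 2.83 CPM at most and the 5 endothelial markers to 1.85. The 6 fibroblast markers summed to 576.1 to 626.1 CPM in ACHN shNC, 72.7 to 77.1 in shKDM5C, 186.4 to 193.8 in shYY1 and 134.2 to 150.7 in the double knockdown, most of it COL1A1 (544.8 to 594.9 CPM in shNC and 47.0 to 51.5 in shKDM5C), while COL1A2 was at 0.0404 CPM or less. In HK-2 they summed to 42.59 to 44.41, 31.03 to 38.96, 56.14 to 63.11 and 94.38 to 103.6 CPM in the same order. The part of these marker levels in the results was not tested.

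A single library stood apart. Replicate 1 of HK-2 shKDM5C differed from replicates 2 and 3 by a chi-square of 128.925 and 123.077 per gene, where every other pair of replicates differed by 1.943 to 6.97. Among the 48 genes its level was above the mean of the other 2 replicates in 31, by up to 1.33 on the log2 scale (CENPE), and below it by as much as -1.26 (KIF18B). The differences followed base composition. The Spearman correlation between the difference and the G+C share of the longest transcript was -0.78 over the 48 genes. Over 14346 genes of the library it was -0.70. Against exon length the correlation was 0.51 over the 48 genes and 0.33 over the 14346. Of the 24 members with the lower G+C share, 23 were higher in this library, against 8 of the 24 with the higher share. The points share 1 library and the correlations are descriptions. For the ACHN double knockdown against shNC the correlation with G+C share was -0.17 over the members, and for the HK-2 double knockdown -0.10. Results that rest on the HK-2 shKDM5C group are therefore given with and without this library.

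**Figure D1:**
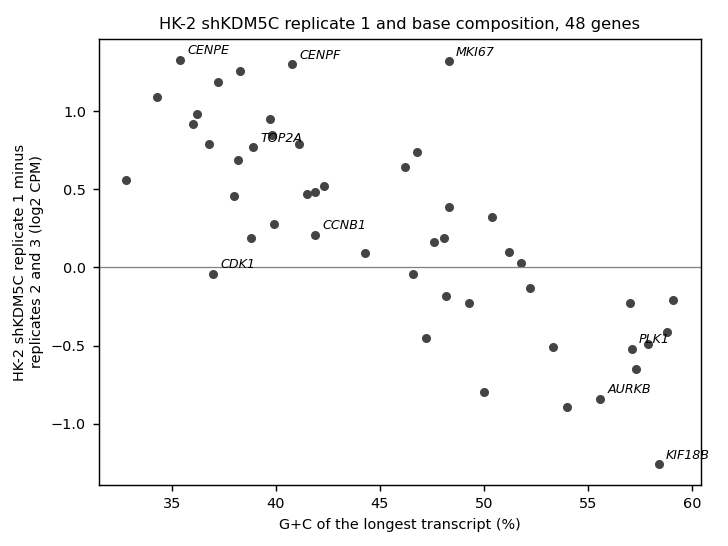
Log2 difference in CPM between HK-2 shKDM5C replicate 1 and the mean of replicates 2 and 3 (y axis, pseudocount 0.5 CPM) against the G+C percentage of the longest transcript (x axis), 1 point per gene for the 48 mitotic genes. Genes of low G+C content such as CENPE and CENPF lie above 0, and genes of high G+C content such as AURKB and KIF18B lie below.

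Promoters are shown because members moved together in ACHN cells and because YY1, a factor depleted here, binds DNA. RefSeq promoter windows on GRCh38.p14, from 250 bases before to 50 bases after a transcription start, were matched for 44 members, and AURKA, BIRC5, TPX2 and UBE2C had no entry. Both strands were searched for CCAAT, the NF-Y box, for TTTGAA, the core of the cell cycle genes homology region, and for AANATGGC, a YY1 motif. CCAAT was in 35 of the 44 windows (79.5%), against 35.7% of 27305 windows of 1 per gene, and TTTGAA in 29 (65.9%) against 15.4%. The pair was in 26 windows (59.1%) against 6.08%. AANATGGC was in 3 windows (6.82%; KIF15, CENPE and CENPK), the same share as in all windows. The motifs do not overlap each other in the windows printed. A match is a description of letters, not of binding.

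The windows printed are PRC1, which had the lowest log2 difference in the ACHN double knockdown, PLK1, a kinase with the same pair of motifs, TOP2A and CDC25B, the members that were higher there, and CENPE, which holds the YY1 motif. They lie at chr15:90994486-90994785 (PRC1, minus strand), chr16:23678639-23678938 (PLK1, plus strand), chr17:40417847-40418146 (TOP2A, minus strand), chr20:3786701-3787000 (CDC25B, plus strand) and chr4:103198294-103198593 (CENPE, minus strand). Each is given 5′ to 3′ on the gene's strand, with motif matches on either strand in capitals.
PRC1: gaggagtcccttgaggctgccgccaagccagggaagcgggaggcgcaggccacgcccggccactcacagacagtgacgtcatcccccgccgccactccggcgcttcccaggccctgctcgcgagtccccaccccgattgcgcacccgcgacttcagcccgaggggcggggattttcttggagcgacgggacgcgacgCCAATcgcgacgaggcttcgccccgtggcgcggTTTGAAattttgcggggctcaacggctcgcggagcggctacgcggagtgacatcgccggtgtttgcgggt
PLK1: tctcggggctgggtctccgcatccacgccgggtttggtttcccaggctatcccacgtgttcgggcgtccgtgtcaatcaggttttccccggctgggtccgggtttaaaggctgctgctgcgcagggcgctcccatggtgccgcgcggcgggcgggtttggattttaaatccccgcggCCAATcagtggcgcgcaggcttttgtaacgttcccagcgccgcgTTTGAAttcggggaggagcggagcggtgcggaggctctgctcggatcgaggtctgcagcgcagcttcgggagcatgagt
TOP2A: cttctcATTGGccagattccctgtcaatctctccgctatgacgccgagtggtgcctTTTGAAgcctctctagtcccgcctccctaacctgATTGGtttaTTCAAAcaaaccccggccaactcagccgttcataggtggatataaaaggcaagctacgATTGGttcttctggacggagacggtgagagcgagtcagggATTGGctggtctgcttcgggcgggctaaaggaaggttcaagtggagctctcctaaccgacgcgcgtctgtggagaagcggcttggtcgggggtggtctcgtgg
CDC25B: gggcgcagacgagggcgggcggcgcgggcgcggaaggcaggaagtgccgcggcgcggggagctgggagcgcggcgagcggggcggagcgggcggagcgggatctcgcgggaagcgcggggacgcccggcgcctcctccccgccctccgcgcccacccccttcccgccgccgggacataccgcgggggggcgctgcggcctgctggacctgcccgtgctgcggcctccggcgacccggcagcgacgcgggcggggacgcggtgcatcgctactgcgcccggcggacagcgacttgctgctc
CENPE: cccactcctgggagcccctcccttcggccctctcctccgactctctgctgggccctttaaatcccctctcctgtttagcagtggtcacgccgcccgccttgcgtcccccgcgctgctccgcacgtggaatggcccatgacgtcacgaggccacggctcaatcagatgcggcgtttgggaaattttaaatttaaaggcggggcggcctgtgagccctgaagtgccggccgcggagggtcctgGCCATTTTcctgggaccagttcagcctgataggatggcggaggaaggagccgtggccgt
PRC1 and PLK1 each held 1 CCAAT followed by 1 TTTGAA. The PRC1 matches began 53 and 20 bases before the start, and the PLK1 matches 73 and 29 bases before it. TOP2A held 4 CCAAT and 2 TTTGAA, CDC25B held none of the 3 motifs, and CENPE held only AANATGGC. In the ACHN double knockdown 19 of the 26 members with the pair fell, with a median log2 difference of -0.36. Of the 18 without it 13 fell, with a median of -0.37, and of all genes tested 32.0% fell. AURKA, BIRC5, TPX2 and UBE2C, which also fell, had no window and are in neither count. The part of the motifs in the changes was not tested.

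In ACHN cells, nearly all mitotic genes rose when KDM5C or YY1 was depleted alone, and most fell when both were depleted. In shKDM5C cells 43 of the 48 were higher than in shNC at an adjusted p-value under 0.05 (edgeR's quasi-likelihood test, adjusted over all genes), against 28.9% of all genes tested, and 2 were lower, against 27.7%. In shYY1 cells 40 were higher, against 24.2% of all genes, and 1 was lower, against 24.5%. In double-knockdown cells 36 were lower, against 32.0% of all genes, and 2 were higher, against 30.7%. The median log2 difference of the 48 was 0.46 in shKDM5C, 0.29 in shYY1 and -0.39 in the double knockdown, where the medians over all genes tested were -0.007, -0.007 and -0.006. These comparisons share the shNC libraries.

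The changes were of modest size. No member reached an absolute log2 difference of 1.5 in the double knockdown against shNC, a size passed downward by 5.61% and upward by 2.81% of all genes tested. Summed over the 48 genes, shNC libraries had 5095.7 to 5272.0 CPM, shKDM5C libraries 6705.8 to 6914.4, shYY1 libraries 6242.2 to 6348.9 and double-knockdown libraries 3945.7 to 4194.2. No library of a group lay within the range of another group. By group mean, 44 of the 48 genes were lowest in the double knockdown and 39 were highest in shKDM5C. The exceptions to the first count were CDC25B, KIF20B and TOP2A, lowest in shNC, and ECT2, lowest in shKDM5C. The shares of all genes lowest or highest in these groups are not given here, so these are counts only.

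**Figure D2:**
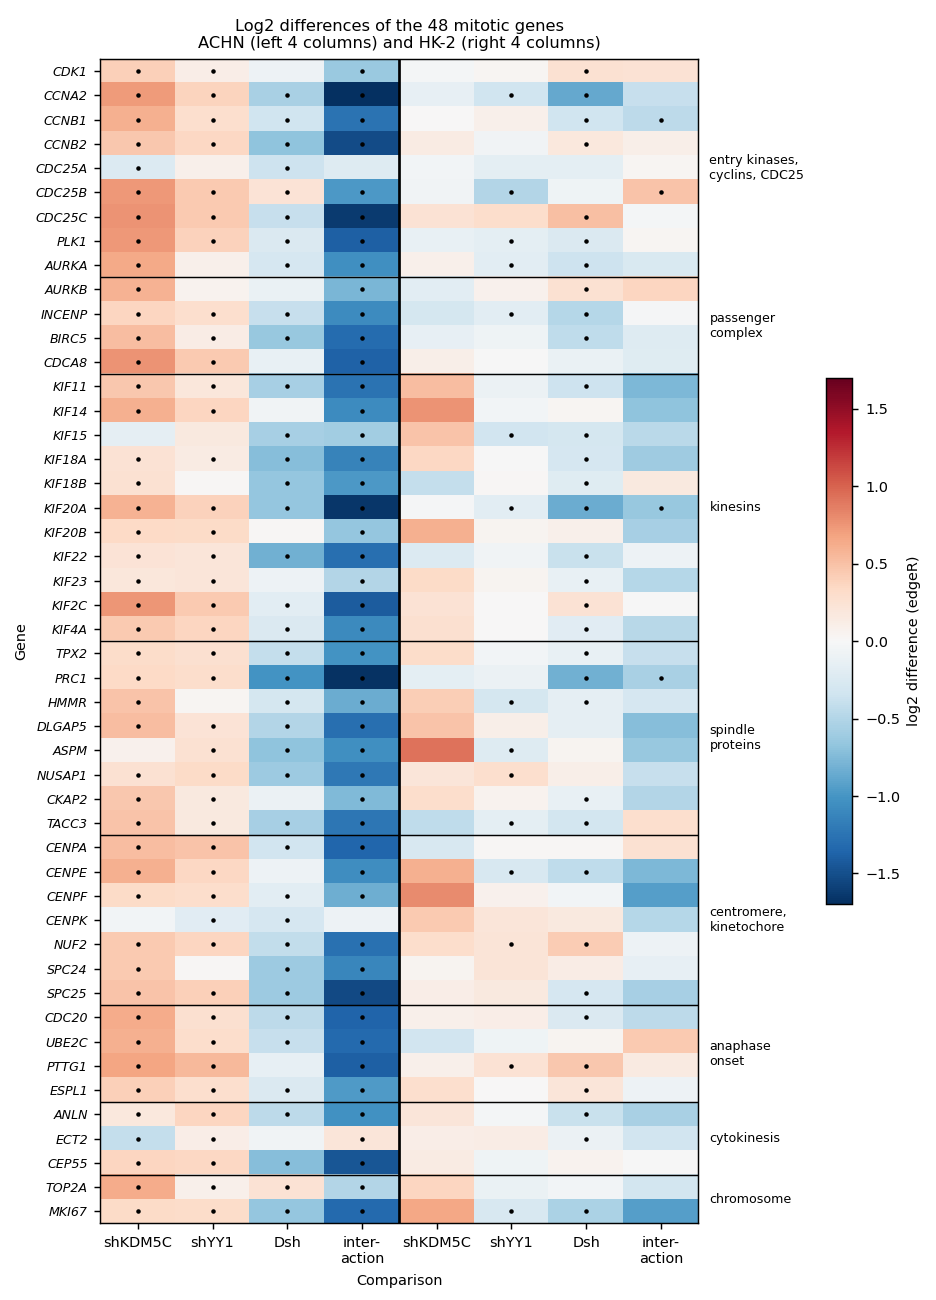
Log2 differences of the 48 genes (rows, by role) in ACHN (left 4 columns) and HK-2 (right 4 columns): shKDM5C, shYY1 and Dsh against shNC, and the interaction of the knockdowns, with red for higher, blue for lower and a dot for an adjusted p-value under 0.05 (edgeR). In ACHN the shKDM5C and shYY1 columns are nearly all red and the Dsh and interaction columns nearly all blue, while the HK-2 columns hold both colors, with no dots for shKDM5C.

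Among the kinases, cyclins and phosphatases of mitotic entry, 8 of 9 rose in ACHN shKDM5C, 7 rose in shYY1, and 7 fell and 1 rose in the double knockdown. Of all genes tested, 28.9% were higher and 27.7% lower in shKDM5C, and 24.2% and 24.5% in shYY1. In the double knockdown 30.7% were higher and 32.0% lower. Beside these shares, groups this small are read as counts only, here and for the ACHN role groups that follow. CDK1, the kinase that drives entry into mitosis, was at 110.3, 111.7 and 123.5 CPM in the shNC replicates, 154.8, 148.9 and 153.2 in shKDM5C, 126.9, 125.8 and 126.2 in shYY1, and 107.1, 111.3 and 106.5 in the double knockdown. Both single knockdowns lay above every shNC library, whereas double-knockdown and shNC libraries overlapped. CDK1 rose by 0.40 in shKDM5C (standard error 0.0406, adjusted p = 6.47e-09, edgeR) and by 0.11 in shYY1 (adjusted p = 0.0151), and its difference of -0.09 in the double knockdown was not past the threshold (adjusted p = 0.13).

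CCNB1, the main mitotic cyclin, was at 118.9, 120.2 and 126.9 CPM in shNC, 187.0, 188.0 and 181.3 in shKDM5C, 152.1, 146.0 and 156.4 in shYY1, and 97.0, 98.8 and 94.7 in the double knockdown. PLK1, the Polo-like kinase that matures centrosomes and spindle poles, followed the same order, with 121.1, 123.2 and 126.9 CPM in shNC, 215.5, 202.6 and 203.4 in shKDM5C, 164.2, 161.4 and 167.7 in shYY1, and 105.7, 103.9 and 106.2 in the double knockdown. For both genes the 4 groups did not overlap. With both factors depleted, CCNB1 fell by 0.34 on the log2 scale (edgeR, adjusted p = 5.74e-06) and PLK1 by 0.24 (adjusted p = 0.000175). Other genes share 12.86% of the exon length of PLK1, so part of its reads could not be assigned.

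CCNB2, the second B type cyclin, had the largest fall of this set in the double knockdown, with 52.1, 49.4 and 50.8 CPM in shNC, 72.4, 66.5 and 71.9 in shKDM5C, 64.8, 63.6 and 68.6 in shYY1, and 33.1, 31.0 and 31.1 in the double knockdown. The log2 difference was -0.68 (standard error 0.0619, adjusted p = 1.74e-08, edgeR). CDC25C, a phosphatase that activates CDK1, had the largest rise in shKDM5C, 0.77 (standard error 0.111, adjusted p = 1.85e-06), and in shYY1, 0.45 (adjusted p = 0.00117), from a low level of 6.64 to 7.75 CPM in shNC. Its sister CDC25B went another way: it rose in each knockdown, and in the double knockdown was at 76.4, 80.3 and 87.3 CPM against 69.2, 70.8 and 67.7 in shNC (log2 difference 0.23, adjusted p = 0.00144). CDC25A, the sister that also acts at the start of S phase, fell in shKDM5C by 0.23 (adjusted p = 0.0165, and 0.078 without shNC replicate 3 or 0.12 without shKDM5C replicate 2) and in the double knockdown by 0.35 (adjusted p = 0.00142).

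All 4 genes of the chromosomal passenger complex, which corrects kinetochore attachments and later marks the cleavage plane, rose in ACHN shKDM5C and 3 rose in shYY1, while 2 fell in the double knockdown. AURKB, the kinase of the complex, was at 60.4, 63.2 and 66.2 CPM in shNC, 100.7, 97.0 and 89.0 in shKDM5C, 66.7, 67.3 and 66.1 in shYY1, and 64.9, 55.3 and 55.7 in the double knockdown. Only shKDM5C stood clear of shNC, with a rise of 0.59 (standard error 0.0483, adjusted p = 1.14e-10, edgeR). The difference in the double knockdown was -0.11 (adjusted p = 0.136). BIRC5, or survivin, the subunit that docks the complex on centromeres, was at 129.8, 129.5 and 135.1 CPM in shNC and 88.2, 79.8 and 85.3 in the double knockdown, with 188.8, 197.5 and 181.3 in shKDM5C and 152.3, 139.7 and 144.1 in shYY1. It fell by 0.64 in the double knockdown (adjusted p = 1.77e-09) with no overlap of replicates. INCENP, the scaffold subunit, fell there by 0.39 (adjusted p = 3.69e-06), and CDCA8, or borealin, had the largest rise of the complex in both single knockdowns, 0.77 in shKDM5C (adjusted p = 2.97e-13) and 0.45 in shYY1 (adjusted p = 2.06e-09).

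Of the 11 kinesins, motor proteins that slide spindle microtubules, move chromosomes or serve the cleavage furrow, 10 rose in shKDM5C, 9 rose in shYY1 and 8 fell in the double knockdown. KIF22, a chromosome arm motor, had the largest fall, from 74.7, 75.5 and 74.5 CPM in shNC to 48.1, 37.6 and 41.6 in the double knockdown, with 89.4, 88.7 and 86.8 in shKDM5C and 90.2, 83.6 and 88.2 in shYY1. The log2 difference was -0.82 (standard error 0.0699, adjusted p = 6.82e-09, edgeR), and other genes overlap 13.01% of its exon length. KIF20A, a cytokinesis motor, was at 59.0, 61.8 and 61.2 CPM in shNC, 95.1, 90.2 and 89.7 in shKDM5C, 80.5, 78.0 and 82.7 in shYY1, and 39.4, 37.7 and 37.9 in the double knockdown. Its 4 groups did not overlap, and it fell by 0.66 in the double knockdown (adjusted p = 8.55e-09). KIF2C, which takes microtubules apart at the centromere, had the largest rises, 0.75 in shKDM5C (adjusted p = 2.94e-13) and 0.45 in shYY1 (adjusted p = 7.46e-11). KIF14, KIF20B and KIF23 were not past the threshold in the double knockdown, at -0.06, 0.02 and -0.08, although each rose in both single knockdowns.

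Spindle and microtubule-associated proteins followed, with 7 of 8 higher in shKDM5C, 7 higher in shYY1 and 7 lower in the double knockdown. PRC1, which crosslinks the microtubules of the central spindle, had the largest fall of the 48 genes. Its level was 132.4, 129.1 and 133.3 CPM in shNC, 166.0, 172.3 and 163.1 in shKDM5C, 168.3, 163.9 and 159.1 in shYY1, and 63.9, 64.4 and 66.2 in the double knockdown. Double-knockdown libraries were far below all others, with a log2 difference from shNC of -1.02 (standard error 0.0471, adjusted p = 1.12e-12, edgeR). An antisense gene overlaps 7.35% of the PRC1 exons, and strand was not used in the counting. ASPM, a spindle pole protein, was not past the threshold in shKDM5C (0.07, adjusted p = 0.129), rose by 0.26 in shYY1 (adjusted p = 9.17e-09) and fell by 0.69 in the double knockdown (adjusted p = 3.01e-08). The largest rise of this set was that of DLGAP5 in shKDM5C, 0.52 (adjusted p = 1.52e-09), and of NUSAP1 in shYY1, 0.32 (adjusted p = 2.09e-08).

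Of the 7 centromere and kinetochore genes, 6 rose in shKDM5C, 5 rose and 1 fell in shYY1, and 6 fell in the double knockdown. SPC25 and SPC24, subunits of the NDC80 complex that grips microtubules, had the largest falls, equal at 2 decimals. SPC25 was at 13.9, 16.6 and 15.9 CPM in shNC, 21.3, 22.4 and 21.2 in shKDM5C, 19.3, 21.9 and 21.3 in shYY1, and 10.2, 8.46 and 11.4 in the double knockdown, a log2 difference of -0.62 (standard error 0.116, adjusted p = 0.000137, edgeR). SPC24 was at 19.9, 17.9 and 16.9 CPM in shNC and 13.4, 9.28 and 12.9 in the double knockdown (-0.62, adjusted p = 0.000174). For both genes the double-knockdown libraries lay below every shNC library. CENPE, the kinetochore motor that aligns chromosomes, rose most in shKDM5C (0.61, adjusted p = 1.46e-10), and CENPA, the centromeric histone, rose most in shYY1 (0.48, adjusted p = 1.41e-08). CENPE was at -0.08 in the double knockdown (adjusted p = 0.356). CENPK, a subunit of the constitutive centromere network, was the member that fell in shYY1 (-0.19, adjusted p = 0.00759, and 0.0716 without shNC replicate 2) and again in the double knockdown (-0.29, adjusted p = 0.00377), and in shKDM5C it was not past the threshold (-0.05, adjusted p = 0.467).

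The 4 genes of anaphase onset all rose in each single knockdown, and 3 fell in the double knockdown. CDC20, the activator of the anaphase-promoting complex, was at 149.1, 136.5 and 145.4 CPM in shNC, 218.4, 222.8 and 227.2 in shKDM5C, 178.8, 171.5 and 177.4 in shYY1, and 106.5, 103.0 and 108.0 in the double knockdown. The groups did not overlap, and the fall in the double knockdown had a log2 size of -0.44 with a standard error of 0.048 (adjusted p = 1.9e-07, edgeR). PTTG1, or securin, the inhibitor of the cohesin-cutting protease separase, rose by 0.67 in shKDM5C (adjusted p = 2.72e-11) and by 0.55 in shYY1 (adjusted p = 1.78e-11), the largest rise of the 48 genes in shYY1. It was not past the threshold in the double knockdown (-0.14, adjusted p = 0.0513), although its replicates of 37.0, 37.1 and 37.6 CPM lay below the 40.4 to 41.7 of shNC.

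Of the cytokinesis genes, CEP55, which brings the abscission machinery to the midbody, was at 176.8, 172.8 and 183.3 CPM in shNC, 225.6, 229.7 and 231.1 in shKDM5C, 224.9, 235.9 and 228.1 in shYY1, and 111.4, 107.5 and 104.1 in the double knockdown. It fell by 0.73 in the double knockdown (standard error 0.0465, adjusted p = 1.32e-10, edgeR). ANLN, the anillin scaffold of the contractile ring, fell by 0.45 (adjusted p = 2.16e-07). ECT2, the exchange factor that activates RhoA at the cleavage plane, did not follow the other genes: it fell by 0.41 in shKDM5C (standard error 0.0349, adjusted p = 2.37e-10), rose by 0.11 in shYY1 (adjusted p = 0.00611) and was at -0.06 in the double knockdown (adjusted p = 0.277). Its shKDM5C libraries held 123.2, 120.9 and 123.3 CPM, below every other ACHN library.

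MKI67, the Ki-67 protein that coats mitotic chromosomes, and TOP2A, the topoisomerase that untangles sister chromatids, rose together in the single knockdowns and parted in the double knockdown. MKI67 was at 447.9, 435.0 and 464.4 CPM in shNC, 580.4, 554.8 and 561.1 in shKDM5C, 555.4, 557.2 and 582.1 in shYY1, and 264.0, 306.6 and 282.5 in the double knockdown. TOP2A was at 272.8, 266.4 and 284.4 CPM in shNC, 443.9, 412.6 and 428.4 in shKDM5C, 293.5, 294.2 and 301.0 in shYY1, and 319.0, 353.7 and 309.7 in the double knockdown. MKI67 fell below and TOP2A rose above the shNC range, with log2 differences of -0.66 (standard error 0.0522, adjusted p = 2.44e-09, edgeR) and 0.25 (standard error 0.0515, adjusted p = 0.000316). The plot of 6 genes by library shows these levels in both lines.

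**Figure D3:**
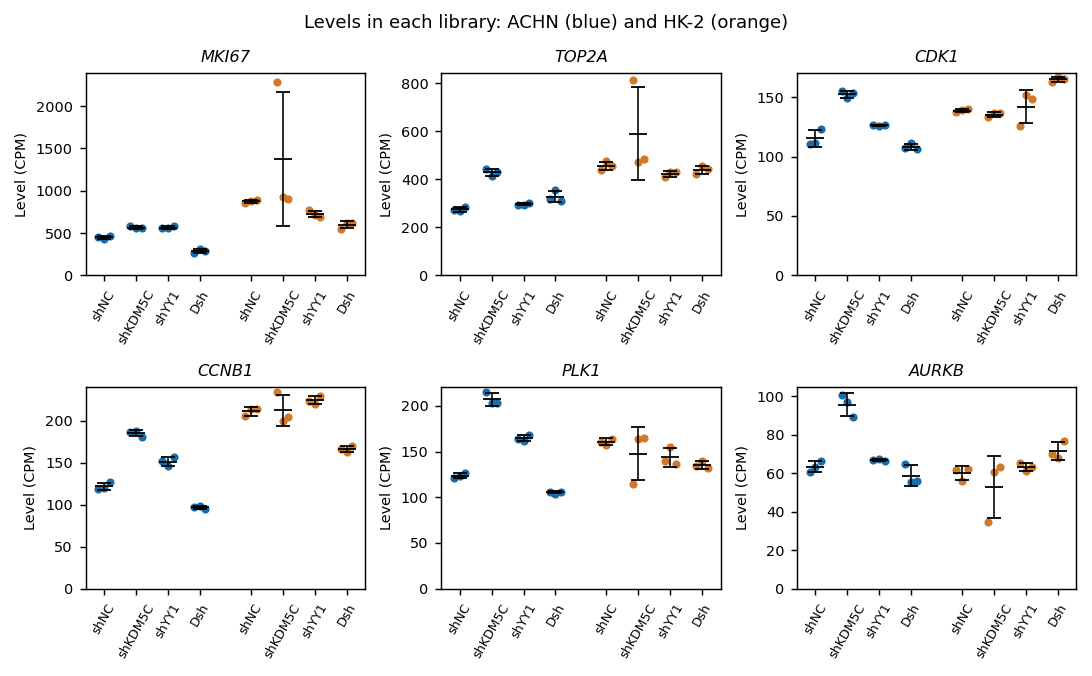
Levels in CPM (y axes, starting at 0) of MKI67, TOP2A, CDK1, CCNB1, PLK1 and AURKB in every library, with ACHN in blue and HK-2 in orange, 1 point per replicate from left to right as numbered, and black bars for the mean and SD (n = 3); the lines were scaled separately. HK-2 shKDM5C replicate 1 lies far above its group for MKI67 (2288.0 CPM) and TOP2A (813.3 CPM) and below it for PLK1 (114.6 CPM) and AURKB (34.4 CPM).

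The double knockdown was lower still when set against each single knockdown. Against shKDM5C, 46 of the 48 genes were lower, where 30.9% of all genes tested were, and only ECT2 was higher (0.35, adjusted p = 5.93e-06, edgeR), where 31.6% of all genes were. Against shYY1, 46 were lower, where 32.7% of all genes were, and only TOP2A was higher (0.14, adjusted p = 0.0205, and 0.085 or 0.08 without shYY1 replicate 1 or 2), where 32.0% were. The medians were -0.88 and -0.70. PRC1 had the lowest value in each, -1.36 and -1.34.

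Whether the double knockdown differed from the sum of the single knockdowns was tested as an interaction on the log2 scale, over all 12 ACHN libraries. It was negative and past the threshold in 45 of the 48 genes, against 28.8% of all genes tested, and positive in 1, ECT2 (0.21, adjusted p = 0.00401, edgeR), against 26.8%. The median was -1.12. The largest values were those of CCNA2, the A type cyclin (-1.69, standard error 0.0629, adjusted p = 2.65e-17), PRC1 (-1.68, standard error 0.0565) and KIF20A (-1.66, standard error 0.0661), and 6 genes were at -1.5 or below. The share of all genes at that size in the interaction is not given here, so 6 is a count only. Every role group had a median between -0.91 and -1.34. CDC25A and CENPK were not past the threshold, at -0.22 (adjusted p = 0.105) and -0.08 (adjusted p = 0.532).

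In HK-2 cells more of the mitotic genes fell than rose in the double knockdown, and the share that rose (16.7%) was below that of all genes. Of the 48, 25 were lower than in shNC, against 24.3% of all genes tested, and 8 were higher, against 25.5%, with a median log2 difference of -0.13 where all genes had -0.003. No member reached an absolute value of 1.5, a size passed downward by 1.84% and upward by 2.45% of all genes. The 48 genes summed to 7736.7 to 7886.4 CPM in shNC and 6684.0 to 7028.8 in the double knockdown, with 7345.3 to 7549.2 in shYY1. In shKDM5C they summed to 12789.9 CPM in replicate 1 and to 8052.4 and 8090.8 in replicates 2 and 3. The ranges of the 4 groups did not overlap, with shKDM5C above shNC also without replicate 1. With all HK-2 libraries in the fit, 7 genes were lower and 3 higher in the double knockdown, and in that fit without shKDM5C replicate 1 the counts were 22 and 8. The shares of all genes called in those fits are not given here, so these are counts only.

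CCNA2 had the largest fall, from 123.7, 122.7 and 120.9 CPM in shNC to 64.7, 64.4 and 71.3 in the double knockdown, with 95.0, 103.1 and 92.8 in shYY1 and 137.0, 94.6 and 101.1 in shKDM5C. Double-knockdown libraries lay below all others, and the log2 difference was -0.87 (standard error 0.0549, adjusted p = 2.44e-14, edgeR). KIF20A was next, from 133.1, 124.0 and 138.7 CPM to 71.6, 70.3 and 78.5, with 121.7, 110.7 and 116.9 in shYY1 and 119.5, 142.2 and 128.5 in shKDM5C (log2 difference -0.84, standard error 0.0563, adjusted p = 1.06e-13). PRC1 went from 160.3, 169.0 and 169.8 CPM to 99.0, 98.2 and 84.5, with 154.0, 159.1 and 152.5 in shYY1 and 160.4, 136.8 and 145.1 in shKDM5C (log2 difference -0.82, standard error 0.0561, adjusted p = 1.69e-13). These 3 genes also fell in the ACHN double knockdown.

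MKI67 fell in HK-2 too, from 851.5, 875.6 and 892.8 CPM in shNC to 553.6, 622.7 and 620.9 in the double knockdown (log2 difference -0.54, standard error 0.0426, adjusted p = 4.7e-12, edgeR), with 766.7, 712.2 and 694.0 in shYY1. In shKDM5C it was at 2288.0, 928.9 and 903.0 CPM, the first value being that of the library that stood apart. CCNB1 fell by 0.34 (adjusted p = 2.13e-07), from 205.5, 214.2 and 214.4 to 166.9, 163.1 and 170.0 CPM, with 223.9, 220.6 and 230.0 in shYY1 and 233.9, 199.4 and 204.4 in shKDM5C. PLK1 fell by 0.24 (adjusted p = 0.00011), from 160.6, 156.6 and 164.2 to 134.4, 140.1 and 132.1 CPM, with 140.1, 155.4 and 135.9 in shYY1 and 114.6, 163.6 and 165.2 in shKDM5C. For both genes the double-knockdown and shNC libraries did not overlap.

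INCENP had the largest fall of the passenger complex, from 109.0, 110.5 and 114.4 CPM in shNC to 75.7, 75.0 and 86.2 in the double knockdown, with 103.4, 91.5 and 100.1 in shYY1 and 74.1, 100.5 and 96.7 in shKDM5C (log2 difference -0.49, standard error 0.057, adjusted p = 1.67e-08, edgeR). ANLN had the largest fall of the cytokinesis genes, from 459.3, 477.0 and 453.5 to 352.2, 351.0 and 360.4 CPM, with 419.4, 484.0 and 454.3 in shYY1 and 754.0, 411.4 and 426.9 in shKDM5C (log2 difference -0.38, standard error 0.0403, adjusted p = 2.6e-09). In both, every double-knockdown library lay below every shNC library. CENPE fell by 0.43 (adjusted p = 1.42e-05), the largest fall of the kinetochore genes, and CDC20 by 0.24 (adjusted p = 3.96e-05).

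The 8 genes that rose in the HK-2 double knockdown, a smaller share than the 25.5% of all genes, were CDC25C, PTTG1, NUF2, CDK1, AURKB, KIF2C, ESPL1 and CCNB2. CDK1 was at 137.7, 138.9 and 139.7 CPM in shNC, 132.9, 136.4 and 136.5 in shKDM5C, 126.1, 151.5 and 148.2 in shYY1, and 162.8, 167.0 and 165.0 in the double knockdown (log2 difference 0.26, standard error 0.046, adjusted p = 2.36e-05, edgeR). AURKB was at 61.8, 55.9 and 62.2 CPM in shNC, 34.4, 60.8 and 63.3 in shKDM5C, 65.1, 60.9 and 62.9 in shYY1, and 70.0, 67.8 and 76.7 in the double knockdown (0.26, standard error 0.0638, adjusted p = 0.001). For each, the double knockdown lay above every other HK-2 library. NUF2, another NDC80 complex subunit, rose from 46.4, 41.1 and 42.7 CPM in shNC to 54.5, 57.1 and 62.8 in the double knockdown, with 47.0, 50.9 and 53.4 in shYY1 and 58.0, 51.9 and 49.5 in shKDM5C (0.43, standard error 0.0705, adjusted p = 6.36e-06). PTTG1 rose from 49.8, 52.4 and 55.9 CPM to 75.9, 76.5 and 64.8, with 57.7, 58.8 and 69.8 in shYY1 and 49.5, 56.5 and 60.1 in shKDM5C (0.46, standard error 0.069, adjusted p = 1.29e-06). CDC25C had the largest rise, 0.51 (adjusted p = 0.000671), and ESPL1, or separase, rose by 0.21 (adjusted p = 0.00053). TOP2A was not past the threshold (-0.05, adjusted p = 0.345): it was at 439.8, 473.6 and 455.3 CPM in shNC and 420.1, 454.8 and 440.3 in the double knockdown, with 409.1, 430.0 and 428.4 in shYY1 and 813.3, 471.3 and 482.2 in shKDM5C.

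By role, 8 of 11 kinesins, 5 of 8 spindle proteins and 2 of 3 cytokinesis genes fell in the HK-2 double knockdown. Of the 9 kinases, cyclins and phosphatases 4 were lower and 3 higher, of the 7 kinetochore genes 2 were lower and 1 higher, and of the 4 genes of anaphase onset 1 was lower and 2 were higher. With 24.3% of all genes lower and 25.5% higher, groups this small are read as counts only. Against shYY1, 22 members were lower (22.9% of all genes) and 10 were higher (24.8% of all genes). PRC1 (-0.72, adjusted p = 1.14e-09, edgeR) and CDC25B (0.43, adjusted p = 2.11e-07) were at the ends of that range. With all HK-2 libraries in the fit the counts against shYY1 were 7 and 1, and 22 and 11 in that fit without shKDM5C replicate 1. Shares of all genes are not given for those fits.

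YY1 depletion alone lowered 12 of the 48 genes in HK-2 cells, against 14.7% of all genes tested, and raised 3, against 14.3%. The largest fall was that of CDC25B, from 304.7, 284.4 and 307.7 CPM in shNC to 212.6, 220.0 and 202.4 in shYY1, a log2 difference of -0.50 (standard error 0.0497, adjusted p = 9.59e-08, edgeR). In the double knockdown it was at 277.4, 290.4 and 283.8 CPM, not past the threshold against shNC (adjusted p = 0.204). The genes that rose were NUSAP1 (0.28, adjusted p = 0.000224), PTTG1 (0.24, adjusted p = 0.0198) and NUF2 (0.22, adjusted p = 0.0275). Without shNC replicate 3 the count of lower genes was 7, and without shNC replicate 2 or shYY1 replicate 3 the count of higher genes was 1, and without shYY1 replicate 1 it was 5. With all HK-2 libraries in the fit the counts were 1 and 0, and in that fit without shKDM5C replicate 1 they were 13 and 3. Shares of all genes are not given for these alternative fits.

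KDM5C depletion alone moved no member past the threshold in HK-2 cells (edgeR), where 0.656% of all genes were lower and 0.668% higher, and at an unadjusted p-value under 0.05 there was 1 lower member and 2 higher ones. DESeq2 called 0. Without replicate 1, 5 members were lower (10.9% of all genes) and 7 were higher (11.5% of all genes). Of these, CCNA2 had the lowest log2 difference, -0.32 (adjusted p = 5.88e-05, edgeR, without replicate 1), and ASPM the highest, 0.40 (adjusted p = 5.78e-08). ASPM was at 764.0 CPM in replicate 1, 332.5 and 336.6 in replicates 2 and 3, and 248.5 to 261.1 in shNC. ANLN changed sign, from 0.20 with all replicates to -0.14 without replicate 1 (adjusted p = 0.00798). Against the double knockdown, 4 members were lower in the latter with all libraries, CCNA2, AURKA, KIF20A and PRC1 (5.59% of all genes), and none was higher (6.26% of all genes; 2 at an unadjusted p-value under 0.05, and 0 called by DESeq2). Without replicate 1 the counts were 27 (21.0% of all genes) and 6 (22.2%).

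The interaction in HK-2 was negative and past the threshold in 3 genes, CCNB1, KIF20A and PRC1, against 4.4% of all genes, and positive in CDC25B (0.48, adjusted p = 0.0229, edgeR), against 5.21%. Without shKDM5C replicate 1 it was negative in 16 genes (13.7% of all genes) and positive in 3 (15.0% of all genes), and the median over the 48 was -0.32 with all libraries and -0.14 without that one. KIF20A had the lowest of these values, -0.69 (standard error 0.0861, adjusted p = 3.87e-07, edgeR, without replicate 1). The corresponding median in ACHN was -1.12. The difference between the lines in the interaction was not tested.

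The double-knockdown difference itself was compared between the lines with the 12 shNC and double-knockdown libraries. It was lower in ACHN than in HK-2 for 25 genes, against 22.7% of all genes, and higher for 4, against 23.3%, with a median of -0.20. With all 24 libraries in the fit the counts were 12 and 1, and without HK-2 shKDM5C replicate 1 they were 25 and 5. The shares of all genes called in those fits are not given here. Of the 36 genes that fell in ACHN and the 25 that fell in HK-2, 21 fell in both. PRC1, KIF20A, CCNA2, MKI67, CCNB1 and PLK1 were among them. Of all genes tested, 32.0% fell in ACHN and 24.3% in HK-2. The share of all genes that fell in both lines is not given here, so 21 is a count only. For CCNB1 and PLK1 the difference between the lines was 0.02 (standard errors 0.0641 and 0.0639, adjusted p = 0.852 and 0.832, edgeR). The genes with a clear difference included CDC25C (-0.88), CCNB2 (-0.84, standard error 0.084, adjusted p = 1.88e-09), NUF2 (-0.83, standard error 0.102, adjusted p = 8.35e-08) and CEP55 (-0.76, standard error 0.0643, adjusted p = 6.4e-11). CCNB2, CDC25C, KIF2C, NUF2 and ESPL1 fell in ACHN and rose in HK-2. All 4 genes of anaphase onset had a lower value in ACHN. CCNA2, CDC25B, CENPE and TOP2A had a higher one, by 0.32 to 0.37. KDM5C and YY1 were reduced less in ACHN than in HK-2, by 0.71 and 0.99 on the log2 scale, and the part of this in the values above was not tested.

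**Figure D4:**
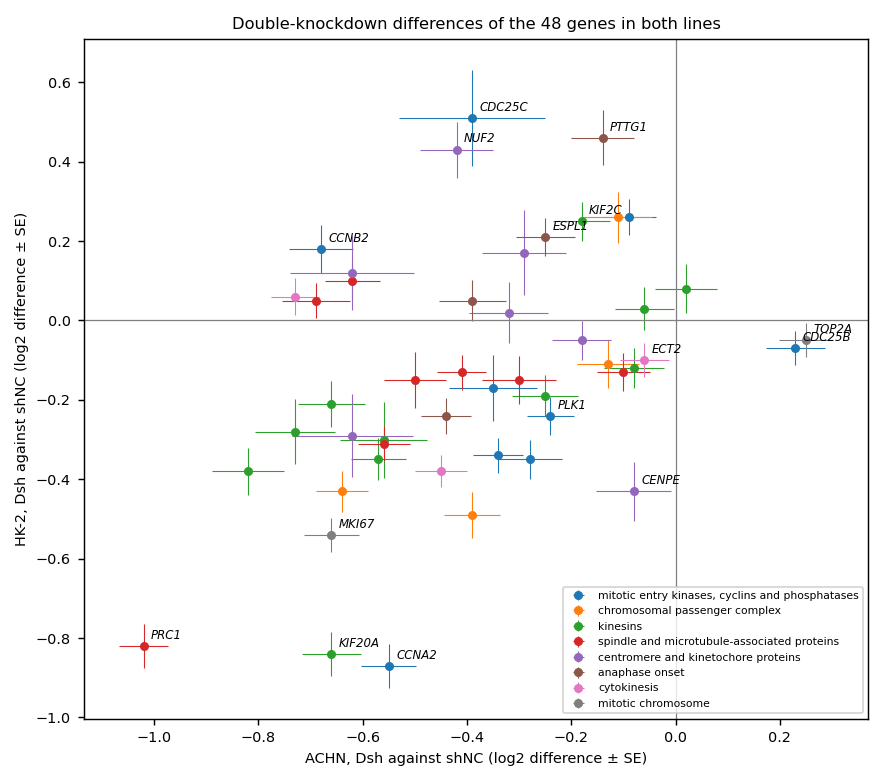
Log2 difference of double-knockdown against shNC cells in ACHN (x axis) and HK-2 (y axis) for the 48 genes, colored by role, with standard errors as bars. PRC1, KIF20A and CCNA2 lie low on both axes, CDC25C, NUF2 and CCNB2 lie left of 0 and above it, and TOP2A and CDC25B lie to the right of 0 in ACHN, with KIF20B close to 0 at 0.02.

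At baseline, HK-2 shNC cells had more of these transcripts than ACHN shNC cells. In a fit of the shNC libraries of both lines, 36 of the 48 were higher in HK-2, against 38.0% of all genes, and 5 were lower, against 38.6%, with a median of 0.45. CDC25B was higher by 2.07 (standard error 0.0413, adjusted p = 1.28e-25, edgeR) and CENPK lower by -1.02 (standard error 0.0819, adjusted p = 7.22e-12). Line and culture cannot be told apart in this comparison. Levels per kilobase of exon were taken on a scale common to the 24 libraries. The most abundant members in ACHN shNC were ANLN (83.6 CPM per kilobase), CDC20 (71.3) and TPX2 (58.0), and the least abundant were CDC25C (2.36), KIF15 (3.91) and CENPE (4.95). In HK-2 shNC they were CDC20 (114.0), TPX2 (96.0) and UBE2C (82.0), and CDC25C (3.64), CENPK (4.15) and KIF15 (5.16). CDC25C was the lowest of the 48 in both lines.

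A second list of 56 mitotic genes, among them other kinetochore subunits, regulators of CDK1 and spindle proteins, gave counts of the same order. In ACHN, 49 of the 56 rose and 2 fell in shKDM5C (28.9% and 27.7% of all genes, median 0.37) and 34 rose and 7 fell in shYY1 (24.2% and 24.5% of all genes, median 0.24). In the ACHN double knockdown 39 fell and 3 rose (32.0% and 30.7% of all genes, median -0.31). Its interaction was negative in 50, against 28.8% of all genes, and positive in none, against 26.8% (median -0.96, edgeR), with 0 positive at an unadjusted p-value under 0.05 and 0 called positive by DESeq2. CKS2, the small subunit that binds CDK1, had the largest fall in the ACHN double knockdown (-1.04, standard error 0.0831, adjusted p = 3.15e-09, edgeR). It also had the largest rise in shYY1 (0.55, adjusted p = 3.23e-12, edgeR). FAM64A had the largest negative interaction (-1.96, adjusted p = 4.6e-15, edgeR). NDC80, the partner of NUF2, fell in ACHN shYY1 (-0.50, adjusted p = 2.99e-06). In the HK-2 double knockdown 23 of the 56 fell and 9 rose (24.3% and 25.5% of all genes, median -0.06), from CENPU, a centromere protein (-0.94, adjusted p = 2.36e-10), to NEK2, the centrosome kinase (0.56, adjusted p = 1.72e-09). The double-knockdown difference was lower in ACHN for 24 and higher for 5, against 22.7% and 23.3% of all genes.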

How the data were processed

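Total RNA from ACHN and HK-2 cells was sequenced as paired-end reads. The authors aligned reads with HISAT2 2.0.5 to the GRCh38/hg38 genome and deposited raw read counts per gene from featureCounts (version 1.5.0-p3 in the submitters' notes, 2.0.1 in the file headers) on Ensembl 84, with no strand option, so reads of overlapping antisense genes cannot be separated. The deposited counts were used as they stand. Genes were filtered with filterByExpr, scaled with TMM and tested with edgeR 4.0.16 (quasi-likelihood F test, R 4.3.3) in the libraries of the 2 groups compared, or of all 4 groups for the interaction, and p-values were adjusted by Benjamini-Hochberg over all genes tested. Fits were tested on simulated counts. Totals of 15926561 to 24272298 per library limit precision for low genes such as CDC25C. Fits with DESeq2 1.42.0, other scalings and filters, a replicate block and each library left out were alternatives. The members and the lists were chosen with earlier results of these data known. Genes given library by library were MKI67, TOP2A, CDK1, CCNB1, PLK1 and AURKB and, for each role, the called gene with the largest absolute change in the double knockdown of either line. Other members were named where they had the largest rise or fall of their role or went against it, and some further values were chosen after they were seen. Base composition was read from the longest annotated transcript. HK-2 is written HK2 in the labels.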

Additional observations from a re-analysis of the deposited data

Results flagged for a closer look

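The double-knockdown difference from shNC was compared between the lines by a test of that difference (edgeR). It was lower in ACHN than in HK-2 for 25 genes, against 22.7% of all genes, and higher for 4, against 23.3%. Both counts were smaller with all libraries of both lines in the fit, as given above. CCNB2 (-0.84), CDC25C (-0.88), KIF2C (-0.41), NUF2 (-0.83) and ESPL1 (-0.44) had log2 differences between the lines that were past the threshold, and each fell in ACHN and rose in HK-2. CCNB2 was at 52.1, 49.4 and 50.8 CPM in ACHN shNC and 33.1, 31.0 and 31.1 in the double knockdown, and in HK-2 at 60.2, 63.3 and 59.0 and then 68.6, 69.7 and 67.1. NUF2 was at 42.9, 43.2 and 45.2 CPM in ACHN shNC and 31.6, 35.8 and 30.9 in the double knockdown. In neither line did the replicates of the double knockdown overlap those of shNC for these 2 genes. CDC25C had the lowest level of the 48 genes, with as few as 96 counts in a library.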

How the results depend on the processing

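Of 9792 recomputed values for single genes, 9339 stayed on the same side of the threshold, 258 lost the call and 193 gained one. Among the 9339, a change of sign was not counted where the gene was past the threshold in neither fit. Another 2 values changed sign with a call on either side, both ANLN in HK-2 shKDM5C. They were -0.14 in the fit of all libraries but replicate 1, and -0.14 to 0.36 when 1 library was left out, the lowest without replicate 1. Counts below are of the 48 genes, without the shares of all genes called in the same fits beside them, and are read as counts only. With all libraries of a line in the fit, 0 were lower in ACHN shYY1, 1 was higher in HK-2 shKDM5C, 1 was lower and 0 higher in HK-2 shYY1, 7 were lower and 3 higher in the HK-2 double knockdown, 19 lower and 2 higher there than in shKDM5C, and 7 lower and 1 higher than in shYY1, 12 lower and 1 higher for the difference between the lines, and 2 lower in HK-2 than ACHN shNC. In the same fit without HK-2 shKDM5C replicate 1, chosen after seeing the data, 4 were lower and 6 higher in HK-2 shKDM5C and 26 lower and 6 higher in the double knockdown against it, and the counts of the other comparisons were within 1.5 times those reported. For the HK-2 double knockdown against shKDM5C, DESeq2 gave 8 lower, no low-count filter 9 and the replicate block 1, and for the HK-2 interaction DESeq2 gave 6 lower and no filter 9. The block changed no other count by over 1.5 times. Replicate numbers do not pair the libraries: same-numbered libraries correlated at -0.0399 to 0.0416 in ACHN and -0.0894 to 0.0376 in HK-2.

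Leaving out 1 library gave 1 to 3 lower genes in ACHN shKDM5C (1 without shNC replicate 3 or shKDM5C replicate 2), 0 to 1 in ACHN shYY1 (0 without shNC replicate 2) and 0 to 1 higher in the ACHN double knockdown against shYY1 (0 without shYY1 replicate 1 or 2). In HK-2 shKDM5C it gave 0 to 5 lower and 0 to 7 higher, and in HK-2 shYY1 7 to 11 lower (7 without shNC replicate 3) and 1 to 5 higher (1 without shNC replicate 2 or shYY1 replicate 3, 5 without shYY1 replicate 1). For the HK-2 double knockdown against shKDM5C it gave 0 to 27 lower (0 without any double-knockdown replicate, 1 without shKDM5C replicate 3) and 0 to 6 higher. For the HK-2 interaction it gave 1 to 16 lower (1 without shNC replicate 1, shYY1 replicate 2 or double-knockdown replicate 3, and 6 without shKDM5C replicate 2 or 3) and 0 to 3 higher (0 without shNC replicate 1 or 3, shYY1 replicate 1 or 3 or any double-knockdown replicate). The highest values without shKDM5C replicate 1 are those given in the results, and the ACHN double knockdown kept 35 to 38 lower. Scaling by total counts moved the median of all genes in the ACHN interaction to 0.108, and no called member changed sign under it. Causes were not tested.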

Other observations

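FOXM1, a transcription factor known to act on promoters of many mitotic genes, is not among the 48 genes and was chosen after its values were seen. In ACHN it was at 162.1 to 163.1 CPM in shNC, 210.9 to 217.3 in shKDM5C, 210.6 to 215.1 in shYY1 and 110.4 to 113.1 in the double knockdown, with an interaction of -1.34 (standard error 0.0507, adjusted p = 3.65e-17, edgeR). In HK-2 it was at 196.0 to 203.0 CPM in shNC, 196.4 to 208.0 in shKDM5C, 171.3 to 175.6 in shYY1 and 130.3 to 145.1 in the double knockdown. The log2 difference of the double knockdown from shNC was -0.55 in ACHN and -0.51 in HK-2 (adjusted p = 2.73e-09 and 3.17e-10, edgeR), and the difference between the lines was -0.02 (adjusted p = 0.81).

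PMF1, a subunit of the MIS12 kinetochore complex, differed between the lines more than any other gene of the second list in the upward direction. Its double-knockdown difference was higher in ACHN by 1.29 on the log2 scale (standard error 0.162, edgeR), with a rise of 0.42 in ACHN (adjusted p = 0.00486) and a fall of -0.84 in HK-2 (adjusted p = 6.83e-08). In HK-2 it was at 22.1 to 25.9 CPM in shNC and 12.4 to 13.8 in the double knockdown, with no overlap. CKS2 was at the other end, lower in ACHN by -1.44 (standard error 0.115).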
